A study of Mus musculus with 6 samples.

Results

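The miR-183 cluster is a group of 3 microRNAs (miRNAs), mmu-miR-182-5p, mmu-miR-183-5p and mmu-miR-96-5p (the mouse prefix is left out from here on), that lie side by side in the mouse genome. Its members were taken by name from the deposited count table, in which each had an entry of its own, so 3 of 649 entries are described here. MiRNAs are short RNAs that guide Argonaute proteins to messenger RNAs and lower their translation and stability, mainly through pairing of a short stretch near the 5′ end called the seed. The cluster is best known from sense organs. It is expressed in the hair cells of the inner ear, in photoreceptors, in olfactory cells and in sensory neurons, and mutations in the seed of miR-96 cause progressive hearing loss in mice and people. In skin it has been described in hair follicles, epithelial organs that also carry touch endings.

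The small RNA of ulcer skin was sequenced from mice of the inbred C57 strain that had a diabetic ulcer or a normal ulcer, all labelled day 14. The labels list 3 samples for each group, numbered 1 to 3. They do not say how diabetes was induced, how the ulcer was made, which sex or age the mice were, or whether the samples of a group came from separate animals, so errors and p-values cover the spread among these samples and may miss that among animals. The columns numbered 3 followed arithmetically from the others (the values of the 3 members are given at the end), so levels and tests are given over 4 libraries, 2 for each group. These 4 libraries held 8949104 to 13421603 miRNA reads, and 618 to 632 of the entries had at least 1 read in them. Groups follow the sample titles. The header of the authors' deposited comparison table calls the columns titled diabetic ulcer "control" and the columns titled normal ulcer "case", and every direction below rests on the titles being right.

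The mature sequences show how alike the 3 members are. They are printed 5′ to 3′ from the RefSeq miRNA table (GRCm38.p6), where all 3 were found, with the seed (bases 2 to 8) in capitals, and each was identical to the sequence in the deposited table.
miR-182-5p: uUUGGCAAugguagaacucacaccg
miR-183-5p: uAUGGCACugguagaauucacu
miR-96-5p: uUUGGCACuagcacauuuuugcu
Counted from 1 at the 5′ end, miR-182-5p and miR-96-5p differ in the seed by A8C, with miR-182-5p given first, and so share 6 of 7 seed bases. miR-183-5p differs from miR-96-5p by A2U, with miR-183-5p given first, and the pair also shares 6 of 7. miR-182-5p and miR-183-5p differ at both places (U2A and A8C) and share 5 of 7. Over whole lengths the order is another: miR-182-5p and miR-183-5p were identical at 18 of 22 positions, whereas miR-96-5p matched miR-182-5p at 12 of 23 and miR-183-5p at 13 of 22. No other counted entry had the same bases 2 to 7 as any member. Among the 1738 mature sequences of the reference table, miR-1271-5p was the other one that shares bases 2 to 7 with miR-182-5p and miR-96-5p.

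The members are cut from 3 hairpins on the minus strand of chromosome 6. The hairpins are printed in the order of transcription, with the 5p and 3p mature strands in capitals, because they show that each member is the 5′ arm of its hairpin.
Mir183: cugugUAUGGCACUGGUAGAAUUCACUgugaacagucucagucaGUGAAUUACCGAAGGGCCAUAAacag
Mir96: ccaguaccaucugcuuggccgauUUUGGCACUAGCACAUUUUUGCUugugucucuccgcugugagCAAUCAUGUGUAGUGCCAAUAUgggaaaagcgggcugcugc
Mir182: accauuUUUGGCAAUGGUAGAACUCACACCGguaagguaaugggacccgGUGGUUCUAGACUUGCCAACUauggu
On GRCm38, Mir183 lies on chromosome 6 from 30169668 to 30169737, Mir96 from 30169446 to 30169551 and Mir182 from 30165918 to 30165992. Mir183 and Mir96 are 116 bases apart, Mir96 and Mir182 are 3453 bases apart, and the whole cluster spans 3820 bases. In GENCODE release M21 none of the 3 lies inside another annotated gene. The nearest is Rncr4, a long non-coding RNA gene on the plus strand that starts 3155 bases away, and the nearest protein-coding gene is Nrf1, which ends 12459 bases away.

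The cluster was abundant in ulcer skin, and its level followed the individual library rather than the group. Levels are given as CPM (counts-per-million miRNA reads) after TMM scaling, which corrects for a few miRNAs taking a large part of a library. A read spans the whole miRNA, so these levels need no length term, although adapter ligation can favour some sequences.

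miR-182-5p, the most abundant member, had 4182 and 2313 CPM in diabetic ulcer 1 and 2, against 5280 and 2142 CPM in normal ulcer 1 and 2. Each group held 1 high and 1 low library, and the groups overlapped. The mean was 3248 ± 1322 CPM in diabetic ulcer and 3711 ± 2219 CPM in normal ulcer (SD, n = 2), which placed it 30th of all entries by mean level. miR-183-5p, which is the nearest to miR-182-5p in sequence, had 1396 and 741 CPM in diabetic ulcer 1 and 2, against 1713 and 741 CPM in normal ulcer 1 and 2. The low libraries of the groups were alike, and the high library of diabetic ulcer lay below that of normal ulcer. Its mean was 1068 ± 463 CPM in diabetic ulcer and 1227 ± 688 CPM in normal ulcer (SD, n = 2). miR-96-5p, the member in which single base changes cause deafness, was much the rarest, with 85.4 and 39.0 CPM in diabetic ulcer 1 and 2, against 119 and 38.5 CPM in normal ulcer 1 and 2. It averaged 62.2 ± 32.8 CPM in diabetic ulcer and 78.9 ± 57 CPM in normal ulcer (SD, n = 2). The order of the members was the same in each of the 4 libraries, with miR-182-5p above miR-183-5p and miR-183-5p above miR-96-5p, and the levels of different members did not overlap.

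**Figure D1:**
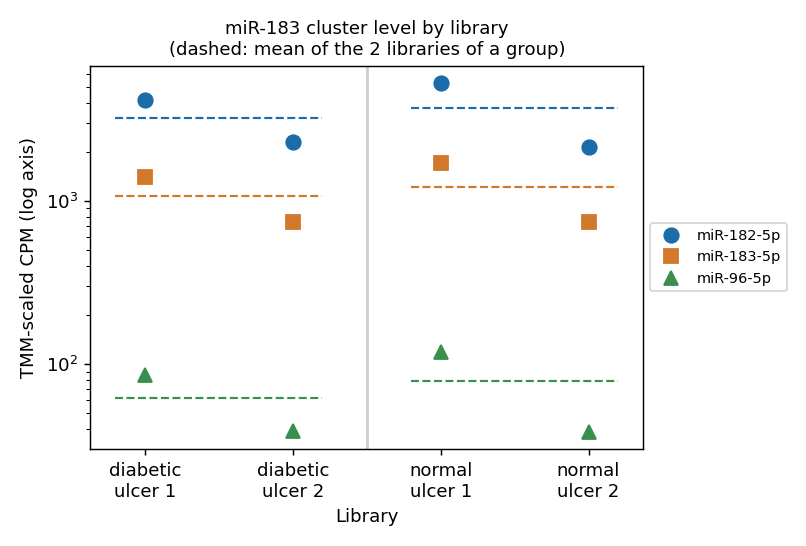
TMM-scaled CPM on a log axis for the 3 members in the 4 libraries, diabetic ulcer on the left, with dashed lines at the mean of the 2 libraries of a group. In each group library 1 lies above library 2 for all 3 members, and the dashed lines of the groups are closer to each other than the libraries of 1 group are.

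No member differed between diabetic and normal ulcer beyond the spread between libraries. The labels imply this comparison, and it was fitted over all 443 miRNAs that passed the filter on low counts, with edgeR's quasi-likelihood test and Benjamini-Hochberg adjustment. For miR-182-5p the log2 difference, diabetic minus normal, was -0.19 ± 0.52 (SE, adjusted p = 0.999), and its 95% interval runs from 0.354 to 2.16 times the normal level. For miR-183-5p it was -0.20 ± 0.51 (SE, adjusted p = 0.999), with an interval from 0.361 to 2.10 times. For miR-96-5p it was -0.34 ± 0.63 (SE, adjusted p = 0.999), with an interval from 0.265 to 2.35 times. A change of 2-fold in either direction therefore lies inside each interval. All 3 estimates were below 0, where 232 of all 443 (52.4%) were, and the median of all tested miRNAs was -0.02. In the 443, edgeR gave 0 calls (0%) and 4 unadjusted p-values under 0.05 (0.903%), DESeq2 gave 0 and 3, and limma-voom gave 0 and 4. None of the 3 members had an unadjusted p under 0.05 in edgeR. The 2 groups did not overlap for 93 of 443 miRNAs (21.0%), 53 of them with diabetic ulcer below (12.0%) and 40 above (9.03%), and for none of the 3 members.

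The sign of the estimates turned with single libraries. Without normal ulcer 1, the highest of the 4, the differences of miR-182-5p, miR-183-5p and miR-96-5p were 0.60, 0.52 and 0.69, and without diabetic ulcer 2 they were 0.25, 0.27 and 0.20. Without diabetic ulcer 1 they were -0.67, -0.71 and -1.0, and without normal ulcer 2 they were -0.59, -0.57 and -0.83. In these 4 fits, where the lone library of a group is taken to vary like the others, the 3 members kept the same sign as each other and none passed the test.

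**Figure D2:**
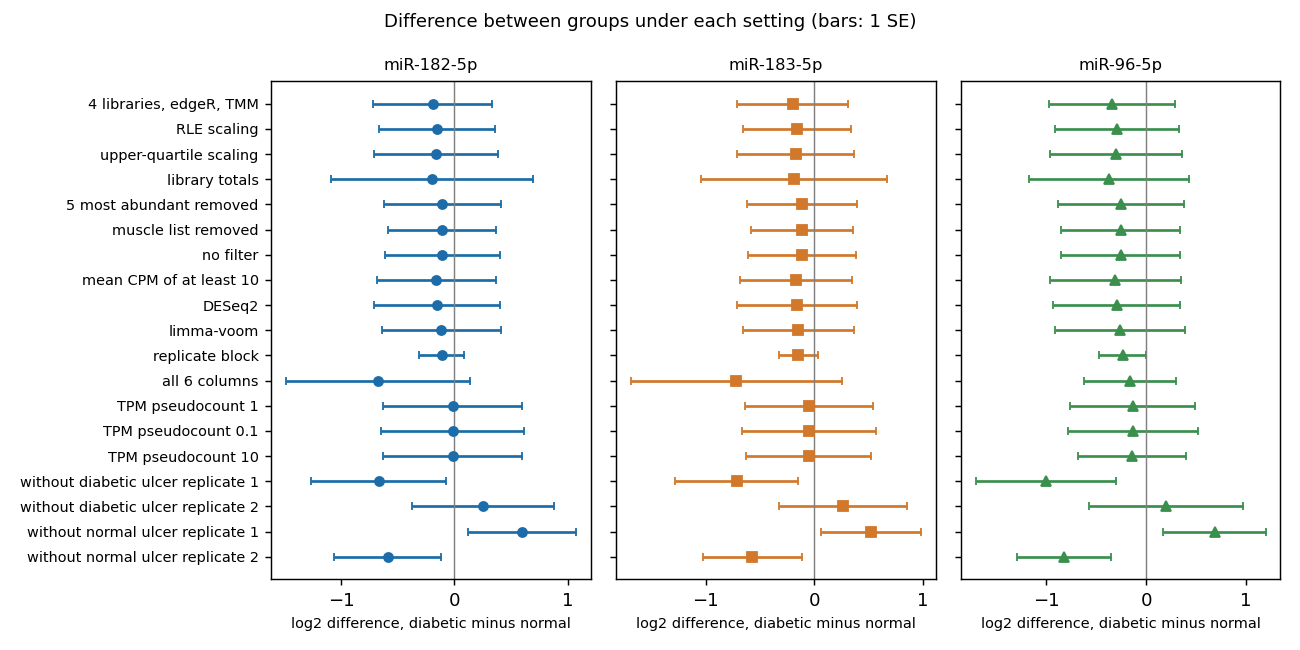
The log2 difference, diabetic minus normal, of each member under the test over 4 libraries (top) and under 18 other settings, with bars of 1 SE. Settings that keep all 4 libraries lie below 0, and those that leave out diabetic ulcer 2 or normal ulcer 1 lie above 0.

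Within each group the members varied more than most miRNAs. miR-182-5p was 1.81 times higher in diabetic ulcer 1 than in diabetic ulcer 2, and 2.47 times higher in normal ulcer 1 than in normal ulcer 2. For miR-183-5p these ratios were 1.88 and 2.31, and for miR-96-5p they were 2.19 and 3.09. In the diabetic group, 79.2%, 81.5% and 86.9% of the 443 tested miRNAs had a smaller difference between the libraries than miR-182-5p, miR-183-5p and miR-96-5p. In the normal group these shares were 90.3%, 88.9% and 95.3%. Across the 4 libraries, the highest level of miR-96-5p was 3.09 times its lowest, against 2.47 times for miR-182-5p and 2.31 times for miR-183-5p.

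The proportions of the members within the cluster do not depend on how libraries are scaled, and those of miR-182-5p and miR-183-5p moved little. miR-182-5p made up 73.9% and 74.8% of the cluster's reads in diabetic ulcer 1 and 2 (95% Wilson intervals 73.5 to 74.2 and 74.3 to 75.2), against 74.2% and 73.3% in normal ulcer 1 and 2 (73.9 to 74.5 and 72.8 to 73.9). miR-183-5p made up 24.6% and 24.0% in diabetic ulcer 1 and 2, against 24.1% and 25.4% in normal ulcer 1 and 2. While the summed cluster ran from 0.182% of all miRNA reads in normal ulcer 2 to 0.946% in normal ulcer 1, the ratio of miR-182-5p to miR-183-5p stayed between 2.89 and 3.12. The log2 of that ratio averaged 1.61 ± 0.04 in diabetic ulcer and 1.58 ± 0.07 in normal ulcer (SD, n = 2), a difference of 0.03. The Wilson intervals take in counting error alone. They are too narrow even for that where reads amplified from 1 molecule are counted more than once.

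miR-96-5p varied most within the cluster. It made up 1.51% and 1.26% of the cluster's reads in diabetic ulcer 1 and 2 (95% Wilson intervals 1.42 to 1.61 and 1.15 to 1.39), against 1.68% and 1.32% in normal ulcer 1 and 2 (1.59 to 1.76 and 1.18 to 1.47). In both groups the library with more of the cluster had the higher share of miR-96-5p, and the intervals of libraries 1 and 2 did not overlap in either group. The intervals of miR-182-5p did not overlap between libraries 1 and 2 of either group either. Its share was higher in library 2 of the diabetic group and in library 1 of the normal group. The log2 ratio of miR-96-5p to miR-183-5p averaged -4.14 ± 0.15 in diabetic ulcer and -4.05 ± 0.30 in normal ulcer (SD, n = 2), so the groups differed by less than their libraries did.

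**Figure D3:**
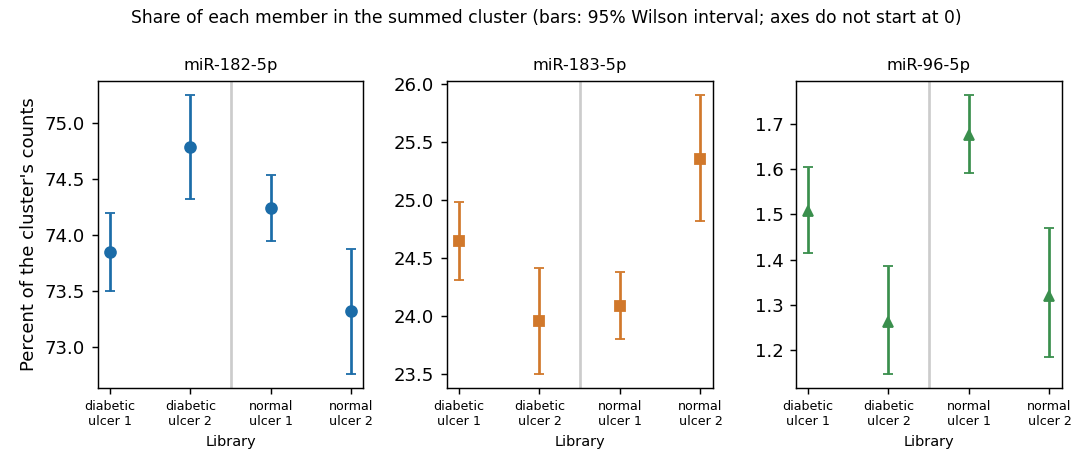
Share of each member in the cluster's reads, in percent, for the 4 libraries with diabetic ulcer on the left; bars are 95% Wilson intervals and the axes do not start at 0. The shares of miR-182-5p stay between 73.3% and 74.8%, and miR-96-5p is higher in library 1 than in library 2 of each group.

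The other strands of the same hairpins were nearly absent from the reads. The sequences below, 5′ to 3′ with bases 2 to 8 in capitals, are the 3p strands that share a hairpin with the members.
miR-182-3p: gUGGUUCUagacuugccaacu
miR-183-3p: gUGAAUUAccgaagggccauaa
miR-96-3p: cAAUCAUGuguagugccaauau
miR-182-3p had 6 and 4 reads in diabetic ulcer 1 and 2, against 5 and 0 reads in normal ulcer 1 and 2, where a count of 0 allows up to 3 reads, or 0.224 CPM over the library total. miR-183-3p had 26 and 7 reads in diabetic ulcer 1 and 2, against 14 and 6 reads in normal ulcer 1 and 2. miR-96-3p had 9 and 3 reads in diabetic ulcer 1 and 2, against 4 and 3 reads in normal ulcer 1 and 2. Of the reads from both arms, the 3p strand took 0% to 0.0159% at Mir182, 0.0686% to 0.168% at Mir183 and 0.281% to 0.943% at Mir96. The 5p strand is thus the main product of each hairpin in all 4 libraries. miR-183-3p was the 3p strand that passed the filter on low counts, with a log2 difference of 0.63 ± 0.75 (SE, edgeR's adjusted p = 0.999). On 6 to 26 reads per library its sign turned when diabetic ulcer 1 was left out, with a difference of -0.57. Without diabetic ulcer 2 the difference kept its sign and was 1.34.

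The miRNAs whose levels ran most like the cluster belonged to the miR-200 and miR-203 families. Likeness was measured as the root mean square distance between a miRNA's log2 CPM, centred over the 4 libraries, and the mean profile of the 3 members, over 269 other entries with a mean of at least 10 CPM. The median distance was 0.61, the lowest 0.05 and the highest 1.90, in log2 units. The nearest 5 were miR-200b-5p (0.05), miR-203b-5p (0.09), miR-141-3p (0.10), miR-200a-3p (0.10) and miR-203-3p (0.12). By the same measure miR-182-5p, miR-183-5p and miR-96-5p lay 0.05, 0.06 and 0.11 from the mean profile, of which they are part. Distances between pairs of members are another measure. They were 0.04 (miR-182-5p and miR-183-5p), 0.16 (miR-182-5p and miR-96-5p) and 0.17 (miR-183-5p and miR-96-5p). These distances rest on 4 libraries that share their depth and scaling, and they describe the libraries only.

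Of the keratinocyte and epithelial list, which holds 9 miRNAs, 7 were among the nearest 10. The list comprises miR-203-3p, which drives keratinocytes out of the cell cycle, miR-205-5p, a miRNA of basal epithelium, the 5 miRNAs of the miR-200 family, which hold cells in an epithelial state, miR-31-5p and miR-184-3p. Library 1 lay above library 2 in both groups for 8 of the 9, and for 148 of all 443 tested miRNAs (33.4%). miR-203-3p was 2.25 times higher in library 1 than in library 2 of the diabetic group, and 2.25 times in the normal group. miR-205-5p had ratios of 2.65 and 2.63. Between groups 8 of the 9 had an estimate below 0 and 1 above it, toward normal and toward diabetic ulcer. The median log2 difference was -0.28, where that of all tested miRNAs was -0.02, and 0 of 9 passed edgeR's test. This direction rested on single libraries, as it did for the cluster: without normal ulcer 1 the list had 1 estimate below 0 and 8 above (median 0.40), and without diabetic ulcer 2 also 1 below and 8 above (median 0.13). The groups overlapped for all 9.

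Set against miR-203-3p and miR-205-5p of its own library, the cluster varied less. Both were among the nearest 10 by profile in these same libraries, so a smaller spread follows from that likeness and adds nothing to it. For each read of miR-203-3p and miR-205-5p together there were 0.153 and 0.189 reads of the cluster in diabetic ulcer 1 and 2, against 0.158 and 0.148 in normal ulcer 1 and 2. The highest of these 4 values was diabetic ulcer 2. The log2 ratio averaged -2.56 ± 0.22 in diabetic ulcer and -2.71 ± 0.07 in normal ulcer (SD, n = 2), a difference of 0.15 that was within the spread of the diabetic libraries. It was 0.31 without diabetic ulcer 1 and -0.0029 without diabetic ulcer 2. The summed cluster itself had 5663 and 3093 CPM in diabetic ulcer 1 and 2, against 7112 and 2921 CPM in normal ulcer 1 and 2.

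The summed share of muscle miRNAs ran in the reverse order of the cluster. miR-203-3p, of the keratinocyte and epithelial list, was 10th of all entries by mean level, beside a large share of muscle miRNAs. Which cells the skin samples held was not tested. The muscle list, with miR-1a-3p, miR-133a-3p, miR-133b-3p, miR-206-3p and miR-499-5p, took 35.7% and 44.9% of all miRNA reads in diabetic ulcer 1 and 2, against 17.2% and 66.1% in normal ulcer 1 and 2. Normal ulcer 2 had the largest muscle share and the smallest share of the cluster, and normal ulcer 1 the smallest muscle share and the largest share of the cluster. Single muscle miRNAs departed from this order: miR-206-3p was 2.85 times and miR-133a-3p 1.36 times higher in diabetic ulcer 1 than in diabetic ulcer 2. Most muscle reads were of miR-1a-3p, with 3204086 and 4778211 in diabetic ulcer 1 and 2, against 1469507 and 8721325 in normal ulcer 1 and 2. The muscle and cluster shares are parts of the same total, so more muscle reads by themselves leave a smaller share for the cluster. The keratinocyte and epithelial list took 5.10% and 1.96% in diabetic ulcer 1 and 2, against 7.0% and 1.44% in normal ulcer 1 and 2, in the same order as the cluster. A lower level in such a tissue sample can mean fewer cells that make the miRNA or less of it in each cell, and these cannot be told apart here. The part that tissue make-up plays in the level of the cluster was not tested.

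**Figure D4:**
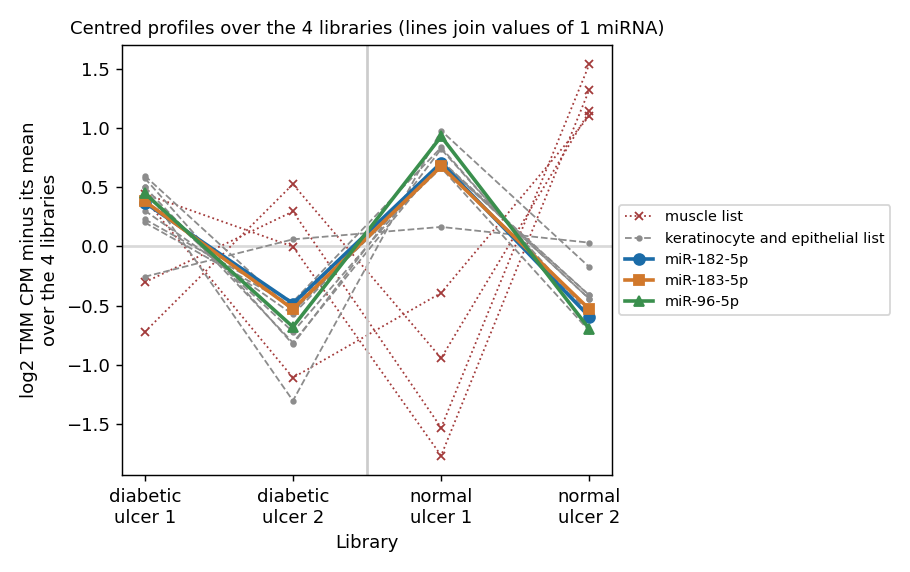
Log2 CPM of each miRNA minus its own mean over the 4 libraries, for the 3 members, the 9 keratinocyte and epithelial miRNAs and 4 of the 5 muscle miRNAs (miR-499-5p had no reads in normal ulcer 1). The members are high in diabetic ulcer 1 and normal ulcer 1 and low in the other two libraries, together with 8 of the 9 epithelial miRNAs, and the 4 muscle miRNAs are highest in normal ulcer 2.

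Most other miRNAs tied to hair follicles were, like the cluster, higher in library 1 than in library 2 of both groups. So were 8 of the 9 epithelial miRNAs (88.9%) and 4 of the 5 stromal miRNAs (80.0%). The order of the libraries thus does not set hair follicle miRNAs apart. The list of other hair follicle miRNAs shares miR-31-5p and miR-205-5p with the epithelial list. It also holds miR-218-5p, miR-214-3p, miR-24-3p, miR-125b-5p and miR-22-3p, of which miR-214-3p is in the stromal list too. Library 1 lay above library 2 in both groups for 6 of the 7 (85.7%), and for 148 of all 443 tested (33.4%). Only miR-205-5p of the 7 was among the nearest 10. miR-214-3p, miR-24-3p and miR-125b-5p lay 0.43, 0.47 and 0.51 from the cluster's mean profile, where the median distance was 0.61. All 7 had estimates below 0 over the 4 libraries (median -0.13), and 0 passed edgeR's test. That count turned with the scaling and with single libraries: 3 of 7 were below 0 with library totals in place of TMM (median 0.06), 4 of 7 with the 5 most abundant miRNAs removed, and 1 of 7 without diabetic ulcer 2 (median 0.21). miR-218-5p was the closest of the other 5, at a distance of 0.27, with 790 and 498 CPM in diabetic ulcer 1 and 2, against 812 and 493 CPM in normal ulcer 1 and 2. miR-22-3p was the 1 of the 7 that ran against the cluster, with ratios of library 1 to library 2 of 0.776 in diabetic ulcer and 0.417 in normal ulcer.

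Among the miRNAs of the nervous system, miR-124-3p, the main miRNA of neurons, had deposited counts of 0 and 0 in diabetic ulcer 1 and 2, against 7 and 6 in normal ulcer 1 and 2. The count and the TPM disagree in diabetic ulcer 2: its deposited TPM there is 0.402, which at 22.4 reads per TPM unit is 9 reads. No direction is given for it, and it did not pass the filter on low counts. miR-9-5p, also of neural cells, had 59.3 and 81.2 CPM in diabetic ulcer 1 and 2, against 78.8 and 103 CPM in normal ulcer 1 and 2. Library 1 was below library 2 in both groups, opposite to the cluster. Of the 4 tested miRNAs of the neural and Schwann cell list, 2 had an estimate below 0 and 2 above it (median -0.16), and 0 passed. For none of these 4 did library 1 lie above library 2 in both groups, where it did for 33.4% of all 443 tested. miR-211-5p, known from pigment cells and retina, was higher in library 1 than in library 2 of both groups, with a wider range than the cluster. It had 20.1 and 5.51 CPM in diabetic ulcer 1 and 2, against 16.0 and 3.46 CPM in normal ulcer 1 and 2. Unlike the cluster, miR-211-5p was highest in diabetic ulcer 1, and it lay 0.55 from the cluster's mean profile. miR-204-5p, which has a closely related sequence, had 20.2 and 15.8 CPM in diabetic ulcer 1 and 2, against 23.3 and 21.7 CPM in normal ulcer 1 and 2. Neither passed edgeR's test.

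The lists of other cell types gave no call either. The muscle list had all 5 estimates below 0 (median -0.68), but without normal ulcer 2 all 5 were above 0 (median 1.67), and with library totals 3 were below and 2 above (median -0.05). The leukocyte list had 1 below and 4 above (median 0.09), the erythroid list 2 below and 1 above (median -0.13), and the stromal list 4 below and 1 above (median -0.07). The medians of these lists turned sign too: without diabetic ulcer 2 that of the leukocyte list was -0.25 and that of the stromal list 0.20, and with library totals that of the erythroid list was 0.34. Library 1 lay above library 2 in both groups for 4 of the 5 stromal miRNAs (80.0%), and for 33.4% of all 443 tested. In the stromal list, miR-199a-5p lay 0.27 from the mean profile of the cluster, close to miR-218-5p. Of the miRNAs encoded near the cluster on chromosome 6, miR-335-5p, from 30741314 to 30741336, was 1.16 from the profile of the cluster, farther than the median distance of 0.61. miR-29a-3p, from 31062673 to 31062694, and miR-29b-3p, from 31063025 to 31063047, were 0.50 and 0.49 from it, both nearer than the median.

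The columns numbered 3 follow from the other columns for the members as well. A sum of 0.500 times normal ulcer 1 and 0.506 times normal ulcer 2, fitted on 223 other miRNAs, gives 40515 reads for miR-182-5p, 13338 for miR-183-5p and 873 for miR-96-5p. The deposited counts of normal ulcer 3 are 40512, 13337 and 873. For diabetic ulcer 3 the deposited TPM of the members follows a formula fitted on 219 other miRNAs. It takes diabetic ulcer 2 with a weight of 2.12 and diabetic ulcer 1 with a weight of -1.0, and adds 6.11. It does not hold for every miRNA, and miR-203-3p, described below, departs from it. This formula gives 190.3 TPM for miR-182-5p and 35.7 TPM for miR-183-5p, and the deposited values are 190.3 and 35.7. For miR-96-5p it gives 1.40 TPM, and 1.40 is deposited. The members were not used to fit either formula.

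For miR-182-5p and miR-183-5p, diabetic ulcer 3 is very low. The deposited counts are 46293, 25204 and 4061 for miR-182-5p and 15447, 8073 and 672 for miR-183-5p in diabetic ulcer 1, 2 and 3. The column numbered 3 is thus far below both libraries that it follows from. This was not so for miR-203-3p, whose order in the first 2 libraries was the same, with counts of 379241, 166081 and 278213 in diabetic ulcer 1, 2 and 3. The deposited TPM of miR-203-3p does not follow the formula above. It was 17966, 7424 and 12695 in diabetic ulcer 1, 2 and 3, so diabetic ulcer 3 lies midway between the others. For miR-96-5p the counts are 945, 425 and 945, so diabetic ulcer 3 repeats diabetic ulcer 1 exactly, while its TPM in diabetic ulcer 3 is 1.40. That is 673 reads for each TPM unit, where the median of that column was 20.8, and miR-182-5p and miR-183-5p had 21.3 and 18.8. Among 209 miRNAs with at least 200 reads and unequal counts in diabetic ulcer 1 and 2, the count of diabetic ulcer 3 equalled diabetic ulcer 1 for 2 and diabetic ulcer 2 for 1.

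**Figure D5:**
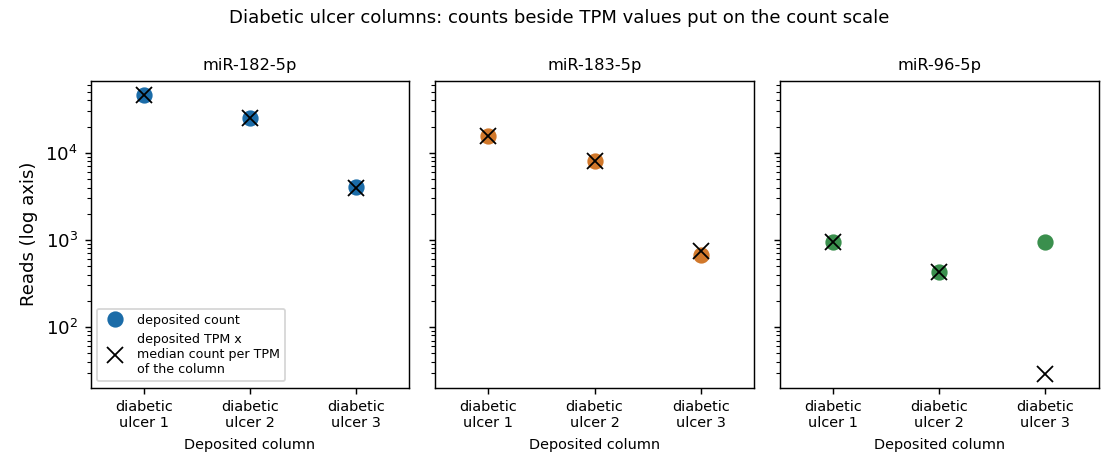
Deposited counts (coloured) and deposited TPM multiplied by the column's median number of reads per TPM unit (crosses), on a log axis, in the 3 diabetic ulcer columns. Counts and crosses coincide in diabetic ulcer 1 and 2, both are low in diabetic ulcer 3 for miR-182-5p and miR-183-5p, and for miR-96-5p the count of diabetic ulcer 3 (945) lies far above its cross.

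With all 6 columns in edgeR's fit, the log2 differences of miR-182-5p and miR-183-5p were -0.67 ± 0.81 and -0.72 ± 0.97 (SE), while that of miR-96-5p was -0.16 ± 0.46. Their adjusted p-values were 0.727, 0.751 and 0.870, and 0 of 438 miRNAs passed (0%). An unadjusted p under 0.05 was reached by 48 of 438 (11.0%), and by none of the members. The authors' deposited table gives fold changes of normal over diabetic ulcer, the reverse of the direction used here, of 1.72 for miR-182-5p, 1.79 for miR-183-5p and 2.14 for miR-96-5p. Their q-values in the authors' deposited table are all 0.991. The members are thus lower in diabetic ulcer by the titles in the authors' deposited table, and did not pass the authors' own test. In that test 1 of 649 entries had a q-value under 0.05. The diabetic base mean in the authors' deposited table is 0.931 times the count of diabetic ulcer 2 alone for each of the 3 members, and for all 222 miRNAs with at least 200 reads there, within 1 percent. For the members diabetic ulcer 2 is the lower of diabetic ulcer 1 and 2, and the higher level of diabetic ulcer 1 does not enter that mean. The authors' base mean over both groups was within 1 percent of 0.75 times the normal plus 0.25 times the diabetic base mean, for 649 of 649 entries. Such weights are those of 3 normal columns and 1 diabetic column. The authors' q-values may therefore not compare the 2 labelled groups in full.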

How the data were processed

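Small RNA was extracted from skin with a mirVana kit, per the labels' protocols. The authors' count table gives unnormalized read counts, 1 entry per mature miRNA. The authors' TPM values times 1 constant per library give the count, within 0.5 reads, for 99.4% to 99.8% of 647 entries in the 4 libraries used here. The authors' deposited comparison table gives fold changes (a ratio), log2 fold changes, base means, p-values and q-values from DESeq2 without pairing, per the file headers. Per the submitters' processing notes the genome build is GRCm38 (mm10). The aligner and counting tool were not given in the sources used here.

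Libraries numbered 1 and 2 (2 per group) were fitted with edgeR 4.0.16 (R 4.3.3; glmQLFit, glmQLFTest, TMM, filterByExpr), with group as the only term, and adjusted over all 443 tested miRNAs. SE is the log2 difference over the square root of F. Alternatives used DESeq2 1.42.0 and limma 3.58.1. The code was tested on simulated data. Named miRNAs are the members, their 3p strands, the 9 lists and the 5 nearest by profile. Members and lists were chosen with earlier results of these data known. Shares have 95% Wilson intervals, and a count of 0 allows 3 reads. Sequences are from RefSeq (GRCm38.p6) and neighbouring genes from GENCODE M21.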

Additional observations from a re-analysis of the deposited data

How the results depend on the processing

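Each member's log2 difference was refitted under 18 alternatives. It stayed below 0 in 16 of 18 for each member, and in no alternative did a member pass (adjusted p from 0.727 to 1.00 for miR-182-5p, 0.751 to 1.00 for miR-183-5p and 0.870 to 1.00 for miR-96-5p). Leaving out 1 library gave -0.67 to 0.60 for miR-182-5p, -0.71 to 0.52 for miR-183-5p and -1.0 to 0.69 for miR-96-5p, with positive values without diabetic ulcer 2 (0.25, 0.27 and 0.20) or without normal ulcer 1 (0.60, 0.52 and 0.69). The other 14 settings gave -0.67 to -0.01, -0.72 to -0.05 and -0.37 to -0.13. The number of miRNAs called was 0, except for 1 (miR-499-5p, of muscle) with library totals, and it ran from 0 to 6 when 1 library was left out, with 6 without normal ulcer 1; no member was among them. With all 6 columns the log2 ratio differences were 0.35 for miR-182-5p to miR-183-5p, 1.42 for miR-96-5p to miR-183-5p and -0.91 for the summed cluster to miR-203-3p plus miR-205-5p, which follows from the values of diabetic ulcer 3. For the summed cluster the difference was -0.20, and -0.68 to 0.58 when 1 library was left out. The replicate block, with libraries of the same number in the labels paired, gave -0.11 ± 0.20, -0.15 ± 0.18 and -0.24 ± 0.23 (SE) for miR-182-5p, miR-183-5p and miR-96-5p and 0 calls. The labels do not say that the numbers pair the libraries. The differences between libraries 1 and 2 correlated between the groups (r = 0.49 across 272 miRNAs, which are not independent replicates). Of the medians of the 9 lists, 8 of 159 refitted values moved by more than the spread between libraries. With library totals in place of TMM, 4 of the nearest 5 miRNAs were shared. Library totals moved the median of all tested miRNAs from -0.02 to 0.17. The members' differences there were -0.19 ± 0.89, -0.19 ± 0.85 and -0.37 ± 0.80 (SE). They lie farther below that median than with TMM, but within these errors of it. With 2 libraries per group that differ by up to 3.09 times, the intervals run past 2-fold in both directions. The reads behind the 5p strands (323 to 62867 per library) are not the limit, whereas those of the 3p strands (0 to 26) are.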
